A study of Mus musculus with 6 samples.

Results

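The genes described here encode cyclin-dependent kinase (CDK) inhibitors, the proteins that hold the kinases of the cell cycle in check. The 8 genes Cdkn1a, Cdkn1b, Cdkn1c, Cdkn2a, Cdkn2b, Cdkn2c, Cdkn2d and Cdkn3 were taken by exact symbol from the gene name column of the array, and all of their probes were used: 13 of the 41174 non-control probes, on 40 spots per array, for 8 of 27962 gene names. RNA came from cultured mouse embryonic stem (ES) cells of an F1 background of 129 and C57BL/6, harvested 48 h after siRNA treatment. The control group received a scrambled control siRNA and the other group an siRNA against BRG1, with 3 arrays per group and no other agent or allele named in the labels. BRG1, the product of Smarca4, is the ATPase motor of SWI/SNF chromatin remodelling complexes. The labels do not say whether the replicates were separate cultures, nor whether feeder cells were present, so p-values measure only the spread between these arrays, and their number limits the precision.

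CDK inhibitors fall into families by structure and target. The INK4 proteins, p16 from Cdkn2a, p15 from Cdkn2b, p18 from Cdkn2c and p19 from Cdkn2d, bind CDK4 and CDK6 and keep them from pairing with D cyclins, whereas the CIP/KIP proteins, p21 from Cdkn1a, p27 from Cdkn1b and p57 from Cdkn1c, bind a broader range of cyclin-CDK complexes. Cdkn2a also makes ARF, an unrelated protein read from another first exon in another frame, which restrains MDM2 and so stabilises p53. Cdkn3, or KAP, is a phosphatase that acts on CDK2. ES cells are known for a short G1 phase and low INK4 activity, and the Cdkn2a locus is a classic target of Polycomb repression.

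The probe letters decide which transcripts a value can speak for, so the start of each probe that carried the largest changes is shown first, in lower case, as the leading bases (1 to 30) of a 60-base probe. The single Cdkn2a probe listed 2 RefSeq transcripts in the array annotation, so its signal cannot be assigned to the p16 or the ARF message.
Cdkn2a: cacttctagcgatgctagcgtgtctagcat
Cdkn1b, cDNA clone probe: ttcattgcctgtgtatgagaaaaacttgga
Cdkn1b, RefSeq probe: agtcagcgcaagtggaatttcgactttcag
Cdkn3, brighter probe: caagcaatataactatcttcatgaattccg
Cdkn3, dimmer probe: accagaggggagctgtcaaaatatagagtc

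The 2 promoters of Cdkn2a are printed because the probe reads a signal that both could feed. Each is the 250 bases upstream of a RefSeq start in the GRCm38.p6 assembly, minus strand, 5′ to 3′, with every GGGCGG, the core of the GC box, in capitals.
Cdkn2a, upstream start, chr4:89294620-89294869: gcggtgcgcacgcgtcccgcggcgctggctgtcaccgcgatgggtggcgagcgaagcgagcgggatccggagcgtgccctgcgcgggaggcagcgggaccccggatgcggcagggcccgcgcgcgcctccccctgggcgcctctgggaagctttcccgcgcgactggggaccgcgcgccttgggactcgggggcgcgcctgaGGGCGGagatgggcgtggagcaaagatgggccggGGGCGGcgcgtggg
Cdkn2a, downstream start, chr4:89282193-89282442: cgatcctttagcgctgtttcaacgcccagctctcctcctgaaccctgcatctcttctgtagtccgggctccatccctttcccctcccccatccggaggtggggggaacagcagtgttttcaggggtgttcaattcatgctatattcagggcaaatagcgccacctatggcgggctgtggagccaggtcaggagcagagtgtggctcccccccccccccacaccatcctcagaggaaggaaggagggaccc
The upstream window held 40 CpG dinucleotides and 2 GGGCGG matches, and the downstream window held 7 CpG and 0 matches. The median over all 32851 RefSeq windows of that length was 6 CpG, and GGGCGG, searched on both strands, occurred in 32.7% of them and in 6 of the 10 windows found for the CDK inhibitor genes. CCAAT occurred in 3 of the 10, against 33.8% of all windows, and CTTTGAA, a TCF/LEF motif, in 1 of the 10, against 4.46%. TATAAA was in 0 of the 10, against 12.4% of all windows. The E-box CACGTG was also in 0, against 6.02%. So were both E2F motifs searched, of which TTTCGCGC was in 0.256% and TTTGGCGC in 0.417% of all windows. The Cdkn1b and Cdkn3 windows, upstream of the other genes whose change was largest, carried both the GC box and the CCAAT box letters, shown in capitals on either strand, as was the TCF/LEF match of Cdkn3.
Cdkn1b, chr6:134920151-134920400, plus strand: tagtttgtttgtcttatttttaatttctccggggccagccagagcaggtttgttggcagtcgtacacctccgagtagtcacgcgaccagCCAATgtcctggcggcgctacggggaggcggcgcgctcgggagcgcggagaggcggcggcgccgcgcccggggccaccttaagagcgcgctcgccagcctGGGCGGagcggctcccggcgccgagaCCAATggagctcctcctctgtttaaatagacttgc
Cdkn3, chr14:46760291-46760540, plus strand: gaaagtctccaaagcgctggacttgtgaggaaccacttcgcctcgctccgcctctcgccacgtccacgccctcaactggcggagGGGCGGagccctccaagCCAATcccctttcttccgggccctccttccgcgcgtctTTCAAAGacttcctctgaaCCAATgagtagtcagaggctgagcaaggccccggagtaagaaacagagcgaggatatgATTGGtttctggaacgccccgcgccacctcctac
These windows held 28 and 18 CpG, respectively. The window of Cdkn2d, which was not called, also held both, with 3 GGGCGG and 1 CCAAT matches, and both Cdkn2a windows held 0 CCAAT. The pair was therefore not limited to lowered genes, nor present in all of them. The matches describe the letters of each window and are not binding sites.

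BRG1 siRNA lowered 4 of the 8 CDK inhibitor genes, Cdkn2a, Cdkn1b, Cdkn3 and Cdkn1c, and raised 0 (limma, Benjamini-Hochberg adjusted p under 0.05 over 17759 genes). Cdkn2a fell the most, 2.15-fold, followed by Cdkn1b at 1.46-fold, Cdkn3 at 1.40-fold and Cdkn1c at 1.22-fold. At an unadjusted p under 0.05 the counts were 5 lower and 0 higher. Over all genes tested, 23.3% were called, 13.4% as lower and 9.87% as higher, so the count is to be read against a background in which many genes changed. The median change of the 8 genes was -0.23 on the log2 scale and that of all tested genes was -0.04. Signals are given as log2 of the processed spot signal relative to each array's 75th percentile, and all 8 gene probes were well above background on all 6 arrays. Signals of different probes are not set in order, since probes differ in how well they hybridise.

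**Figure D1:**
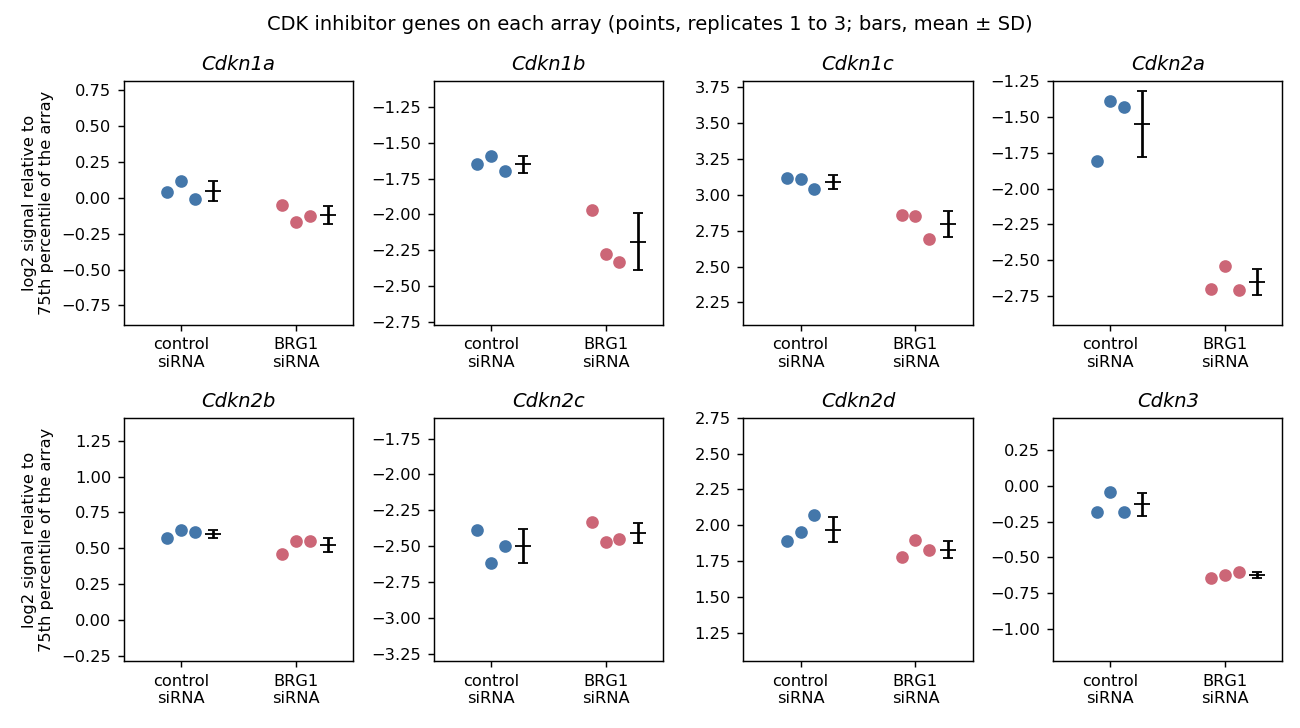
Log2 signal relative to each array's 75th percentile (y axis) for each of the 8 CDK inhibitor genes, by group (x axis), with points for replicates 1 to 3 and bars for the mean ± SD. Every panel spans the same range of log2 units; the Cdkn2a points of the BRG1 siRNA arrays (-2.70, -2.54 and -2.71) lie below all control points.

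The siRNA target and the cells were checked first. All 3 Smarca4 probes fell, the one used for the gene to 65.8% of the control signal (adjusted p = 0.00365), so the comparison is between full and reduced BRG1 message. The share of spots well above background ran from 60.9% to 75.3% over the 6 arrays. All 13 ES cell markers on the array were well above background on every array, and their summed linear signal, relative to the 75th percentile, was 591.0 to 670.2 in controls and 601.1 to 660.8 with BRG1 siRNA. That sum follows its brightest genes, Dppa5a, Klf2 and Zfp42, none of them called. Of the 13, Nanog (0.41), Utf1 (0.43) and Klf4 (0.34) rose and Pou5f1 (-0.33) fell, against 9.87% higher and 13.4% lower among all genes. With median scaling 0 passed in either direction, and with spike-in scaling 4 rose and 0 fell. Slide 1 carried the 3 controls with BRG1 siRNA replicate 1, and slide 2 carried the other BRG1 siRNA arrays. Scaling on spike-in probes moved the median change of all genes to 0.161 and the share of rises among called genes from 42.3% to 84.1%, so directions are relative to the bulk of the genes on the array. With spike-in scaling 3987 of 17759 genes were called, 3353 of them higher. Median scaling called 1734, 833 of them higher, and slide as a fixed block 1392, 477 of them higher. The counts of every list under these settings are to be read against these numbers.

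Cdkn2a, the gene for p16 and ARF, is read by 1 probe, on the minus strand of chromosome 4 from 88678367 to 88678426 in mm7 coordinates. No exon annotation of that build was used here. Its processed signal in replicates 1, 2 and 3 was 558.6, 887.8 and 768.2 with control siRNA and 332.9, 346.5 and 302.5 with BRG1 siRNA. After scaling, the log2 signals were -1.81, -1.39 and -1.43 in controls and -2.70, -2.54 and -2.71 with BRG1 siRNA. Control replicate 1 was the lowest control, the 3 BRG1 siRNA arrays lay close together, and the groups did not overlap. The mean fell from -1.55 ± 0.23 to -2.65 ± 0.09 (SD, n = 3), a change of -1.11 ± 0.13 (SE), to 46.4% of the control level (limma adjusted p = 0.00423). Of all genes tested, 0.574% were called and at least 2-fold lower, and Cdkn2a ranked 72 by size among the 2387 lowered genes.

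The Cdkn2a probe was printed at 10 positions on each array, which gives a measure of spotting error. The SD between spots within an array was 0.04 to 0.09. Control spots ranged from -1.95 to -1.33 and BRG1 siRNA spots from -2.80 to -2.40, and at 10 of 10 positions every BRG1 siRNA array with a value was below every control. A spot of BRG1 siRNA replicate 1 was left out as an outlier. The spread among control arrays was therefore larger than the spread among spots of 1 array. Repeat spots measure the same RNA and add no replicate.

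**Figure D2:**
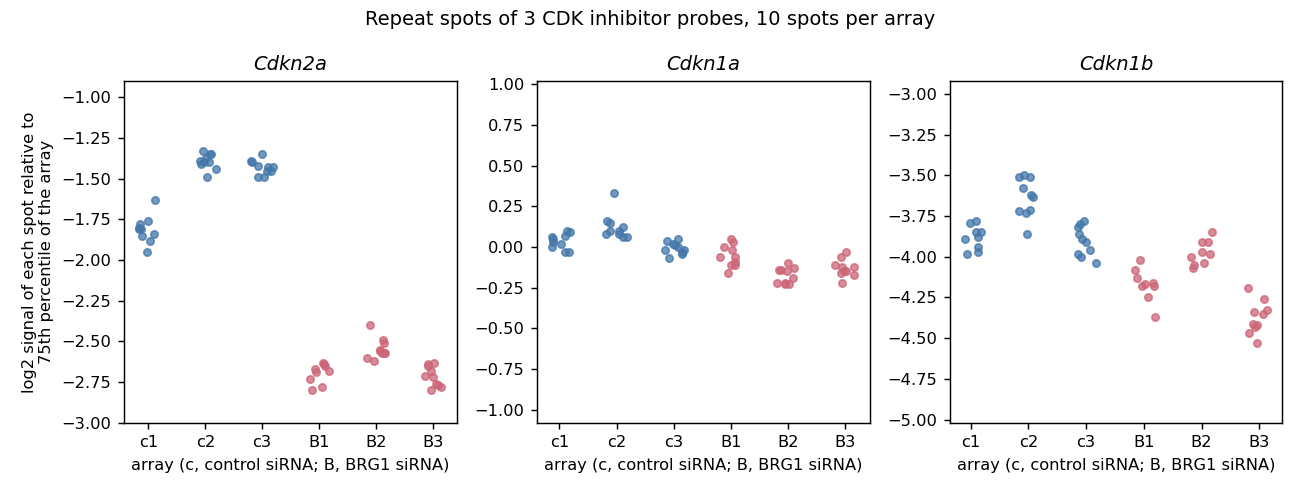
Log2 signal relative to each array's 75th percentile (y axis) of each of 10 spots on each array, outlier spots left out (x axis, with c for control siRNA, B for BRG1 siRNA and the replicate number), for the probes of Cdkn2a and Cdkn1a and the RefSeq probe of Cdkn1b. For Cdkn2a the highest BRG1 siRNA spot, at -2.40, is below the lowest control spot, at -1.95; spots of both groups overlap for the other probes.

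Leaving out any single array kept the Cdkn2a change between -1.24 and -1.03, with adjusted p of 0.00482 to 0.0276. With slide as a fixed block the change was -1.15 (adjusted p = 0.0432). Slide 2 holds 0 controls, so every value with slide as a fixed block rests on BRG1 siRNA replicate 1 alone against the 3 controls and borrows from slide 2 only its spread. On slide 1 alone the change was the same -1.15 but was not called (adjusted p = 0.0829).

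Of 24 fibroblast or feeder markers, 21 were tested, of which 10 fell and 2 rose, with a median change of -0.22. Among all genes 13.4% were lower and 9.87% higher. The largest change in the list was the rise of Mgp (1.17), followed by the fall of S100a4 (-1.09), and Lox also rose (0.75). With spike-in scaling 4 fell and 3 rose. The summed linear signal of the tested markers, led by Acta2 and Tagln, was 69.7 to 72.6 in controls and 56.5 to 58.5 with BRG1 siRNA. Of the 24, 20 were well above background on all 6 arrays, while Fap, Lum and Pdgfra were not tested for lack of signal in either group. Primitive and visceral endoderm markers summed to 6.0 to 6.2 in controls and 5.4 to 5.7 with BRG1 siRNA, with 2 of 10 lower and 0 higher, and Afp, Pdgfra and Ttr not above background. Trophectoderm markers, 4 of 12 lower and 2 higher, summed to 80.7 to 91.9 and 90.4 to 95.6, with Elf5 and Tpbpa not above background. That sum was set mostly by Krt8 and Krt18 (log2 means of 4.96 and 5.44 in controls), neither of them called. Cdx2, Eomes, Krt7 and Rhox6 fell, and Tfap2c and Hand1 rose. Neural progenitor markers, 1 of 8 lower and 0 higher, summed to 12.4 to 12.7 and 12.0 to 12.8, with Neurog2, Sox3 and Zic1 not above background. The part of these markers in the Cdkn2a result was not tested, and in bulk RNA fewer cells of a type and less RNA per cell cannot be told apart.

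Cdkn2b lies beside Cdkn2a in the annotation and encodes p15, the INK4 inhibitor induced by TGF-beta. Its single probe, for which the array gives no coordinate, read 0.57, 0.63 and 0.61 in controls and 0.46, 0.55 and 0.55 with BRG1 siRNA. The BRG1 siRNA arrays were slightly below the controls without overlap, but the change of -0.08 ± 0.04 (SE) was not called (adjusted p = 0.245) and became 0.117 with spike-in scaling. The within-array difference between the Cdkn2a and Cdkn2b signals changed by -1.03 on the log2 scale. That comparison and 3 between probes of 1 gene formed a family of 4 added after the values were seen. Its exact two-sided permutation p was 0.1, the smallest that 3 arrays against 3 allow (adjusted p = 0.2).

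The other INK4 genes showed no change that passed the test. Cdkn2c, for p18, was read on chromosome 4 at 109037613 to 109037672 of mm7, minus strand, at -2.39, -2.62 and -2.50 in controls and -2.33, -2.47 and -2.45 with BRG1 siRNA. The groups overlapped, and the change was 0.09 ± 0.08 (SE, adjusted p = 0.445). A second Cdkn2c probe, at 109037591 to 109037652, shares 40 bases with the first and gave -0.02 ± 0.11 (SE, adjusted p over probes = 0.903). Cdkn2d, for p19 of the INK4 family and distinct from ARF, was read on chromosome 9 at 21165094 to 21165153, minus strand. Its signals were 1.89, 1.95 and 2.07 in controls and 1.78, 1.90 and 1.83 with BRG1 siRNA, with overlap at 1 array of each group. The change of -0.14 ± 0.06 (SE) did not pass (adjusted p = 0.184) and was 0.0624 with spike-in scaling. With 3 arrays per group, small changes need not pass. The Cdkn2d change was larger than the SD of either group (0.09 in controls and 0.06 with BRG1 siRNA) and was still not called.

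Among the CIP/KIP genes, Cdkn1b, which encodes p27, an inhibitor of cyclin E and cyclin A complexes with CDK2, had the largest change. The brighter of its probes, on chromosome 6 at 134939519 to 134939578 of mm7, plus strand, read -1.65, -1.59 and -1.70 in controls and -1.97, -2.28 and -2.33 with BRG1 siRNA. BRG1 siRNA replicate 1, the array that shared a slide with the controls, was the nearest to them. The mean went from -1.65 ± 0.06 to -2.19 ± 0.20 (SD, n = 3), a fall to 68.5% of control (-0.55 ± 0.10 SE, adjusted p = 0.0183). This probe is annotated to a cDNA clone and to 0 RefSeq transcripts. The probe annotated to the RefSeq transcript, at 134935407 to 134935465 and printed 10 times, read -3.88, -3.64 and -3.90 in controls and -4.17, -3.98 and -4.37 with BRG1 siRNA. It did not overlap between groups, but its change of -0.37 ± 0.12 (SE) missed the threshold (adjusted p over probes = 0.0941), and at 7 of 10 positions every BRG1 siRNA spot kept was below every control spot kept. The 3 spot values left out as outliers all lay at the same position, which is counted among the 7 on BRG1 siRNA replicate 3 alone. The within-array difference between these probes changed by -0.18 (exact permutation p = 0.3, adjusted p = 0.3). The Cdkn1b probe at 134937910 to 134937969 was above background on 1 array and was not tested.

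The Cdkn1b call depended on the arrays and on the processing. With slide as a fixed block the change was -0.322 (adjusted p = 0.0628) and on slide 1 alone -0.322 (adjusted p = 0.101). It was also lost without control replicate 1 (adjusted p = 0.0556), 2 (0.0767) or 3 (0.0641), or without BRG1 siRNA replicate 2 (0.0724), at changes of -0.573 to -0.504, and was kept without BRG1 siRNA replicate 1 (0.0112) or 3 (0.0374). Median scaling (-0.494, adjusted p = 0.0706), spike-in scaling (-0.348, 0.129), no filter on dim probes (0.0612) and the replicate block (0.053) also ended it.

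Cdkn1c encodes p57, an imprinted inhibitor expressed from the maternal allele. Its probe, on chromosome 7 at 139886128 to 139886187 of mm7, minus strand, read 3.12, 3.11 and 3.04 in controls and 2.86, 2.85 and 2.69 with BRG1 siRNA. All BRG1 siRNA arrays were below all controls by a small margin, with means of 3.09 ± 0.05 and 2.80 ± 0.09 (SD, n = 3). The change of -0.29 ± 0.06 (SE) left 81.8% of the control signal (adjusted p = 0.0246). It was -0.23 with slide as a fixed block (adjusted p = 0.161) and lost its call when any array other than BRG1 siRNA replicate 3 was left out (adjusted p of 0.0509 to 0.0924, changes of -0.32 to -0.275). With spike-in scaling it was -0.0919 (adjusted p = 0.567).

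Cdkn1a, the p53 target that encodes p21, was read by 1 probe printed 10 times, on chromosome 17 at 27293819 to 27293878 of mm7, plus strand. Its signals were 0.04, 0.12 and -0.01 in controls and -0.05, -0.17 and -0.13 with BRG1 siRNA. The arrays did not overlap, although the nearest arrays of the groups were closer to each other than the arrays within a group were on average. The change of -0.17 ± 0.06 (SE) was not called (adjusted p = 0.0824). It passed with the trended, robust form of eBayes (adjusted p = 0.0456) and was 0.0295 with spike-in scaling.

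Cdkn3, whose phosphatase product removes the activating phosphate of CDK2 and whose message is highest in dividing cells, fell on both of its tested probes. The brighter, on chromosome 14 from 42090015 to 42091538 of mm7, plus strand, covers 1524 bases of genome and so spans at least 1 intron. It read -0.18, -0.04 and -0.18 in controls and -0.64, -0.62 and -0.60 with BRG1 siRNA. The BRG1 siRNA arrays were nearly equal and far from the controls, with means of -0.13 ± 0.08 and -0.62 ± 0.02 (SD, n = 3). The change was -0.49 ± 0.05 (SE), to 71.4% of control (adjusted p = 0.00365). The dimmer probe, at 42087302 to 42087361, fell 1.27-fold (-0.35 ± 0.06 SE, adjusted p over probes = 0.0133), and the within-array difference of these probes changed by -0.14 (exact permutation p = 0.1, adjusted p = 0.2). The Cdkn3 probe at 42088080 to 42088139 was above background on 1 array and was not tested. The Cdkn3 call was kept with slide as a fixed block (-0.503, adjusted p = 0.039) and without any single array, and was lost on slide 1 alone (adjusted p = 0.0783), with median scaling (-0.433, adjusted p = 0.0514) and with spike-in scaling (-0.287, adjusted p = 0.0762).

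**Figure D3:**
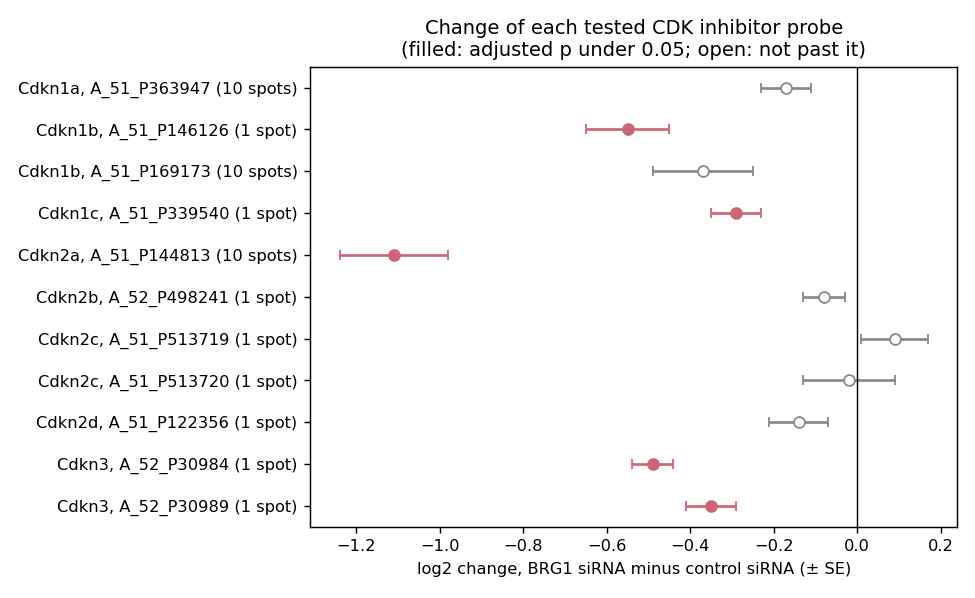
Log2 change with BRG1 siRNA relative to control siRNA (x axis; bars, ± SE of the limma fit) for each of the 11 tested CDK inhibitor probes (y axis), filled where the adjusted p over all probes was under 0.05. The 5 filled probes, of Cdkn1b, Cdkn1c, Cdkn2a and Cdkn3, all lie below 0.

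Probe by probe, 5 of the 11 tested probes fell and 0 rose, where 19.6% of all 26262 tested probes were called, 11.0% as lower and 8.6% as higher. For 6 of the 8 genes the groups were fully apart, as they were for 44.0% of all genes, and in the lower direction for 25.1% of all genes. The 4 called genes kept a negative change under each of the 20 alternative ways of processing, but the number called ranged from 0 to 5. Cdkn2a kept its call in 19 of the 20, Cdkn3 in 17, and Cdkn1b and Cdkn1c in 10 each. Over all genes the number called also differed between settings, for example 1734 of 17759 with median scaling against 4139 in the main setting.

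**Figure D4:**
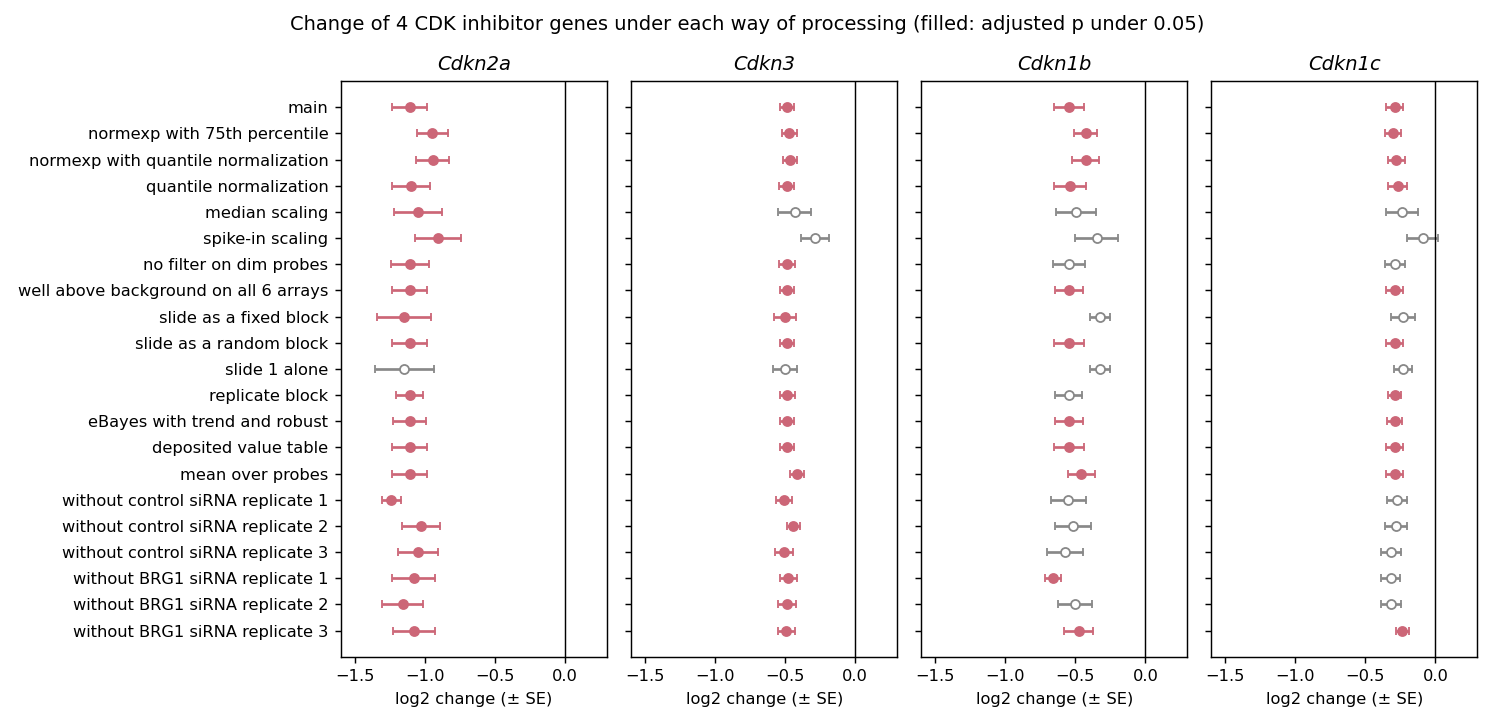
Log2 change (x axis; bars, ± SE) of the 4 lowered CDK inhibitor genes under the main setting and 20 alternatives (y axis), filled where the adjusted p was under 0.05. Cdkn2a stays between -1.24 and -0.908, whereas Cdkn1c with spike-in scaling is at -0.0919 with an SE bar that reaches 0.

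The kinases and cyclins that INK4 proteins oppose changed in both directions: of 8 tested genes for D cyclins, CDK4, CDK6 and the RB family, 3 fell and 1 rose, with a median of 0.05. Among all genes 13.4% were lower and 9.87% higher. With spike-in scaling 1 fell and 2 rose, with median scaling 1 fell and 0 rose, and with slide as a fixed block 2 fell and 0 rose. Ccnd2, for cyclin D2, fell 1.74-fold (-0.80 ± 0.06 SE, adjusted p = 0.00165), and its other probes gave -0.87 and -0.90. Ccnd1, for cyclin D1, fell by 0.40 (adjusted p = 0.00256) and Cdk6 by 0.25 on the log2 scale (adjusted p = 0.0154), the latter without a call in 12 of 20 alternatives. Ccnd3, for cyclin D3, rose by 0.26 (adjusted p = 0.0108). Cdk4 (0.15, adjusted p = 0.115), Rb1 (0.01), Rbl1 (0.08) and Rbl2 (0.15, adjusted p = 0.0797) did not pass.

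Among 18 genes for CDK1, CDK2, their cyclins and activators, 3 fell and 1 rose, near the shares of all genes (13.4% lower and 9.87% higher). With spike-in scaling 0 fell and 3 rose, and with median scaling, as with slide as a fixed block, 0 passed in either direction. Cyclin E2 gene Ccne2 fell by 0.26 (-0.12 on its second probe, not called). Ccnh, of the CDK-activating kinase, fell by 0.22 on 1 of its 4 probes (-0.14, 0.20 and -0.09 on the others, none called). Cyclin B2 gene Ccnb2 fell by 0.18, while Cdk2, the main kinase bound by p21 and p27, rose by 0.17 (adjusted p = 0.0443). These are small changes, and Ccnb2 was at 0.0212 with spike-in scaling. E2F genes, which act downstream of RB, had 1 rise in 10 and 0 falls. E2f1 was 1.5-fold higher (0.59 ± 0.06 SE, adjusted p = 0.00305), its second probe also rose (0.37), and the other 9 genes lay between -0.17 and 0.03.

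On the ARF side of Cdkn2a, 1 of 9 genes rose and 1 fell (2 and 0 with spike-in scaling, 0 and 0 with median scaling), near the shares of all genes (9.87% higher and 13.4% lower). Trp53, for p53, was 1.44-fold higher (0.53 ± 0.13 SE, adjusted p = 0.0368). Its second probe gave 0.07, and the call was lost in 10 of 20 alternatives, including without control replicate 1 (adjusted p = 0.10), 2 (0.0761) or 3 (0.128) and without BRG1 siRNA replicate 1 (0.0818) or 2 (0.117). Huwe1, an ARF-bound ubiquitin ligase, fell by 0.29 (adjusted p = 0.0317), with -0.14, 0.07, -0.01 and 0.20 on its other probes. Mdm2, the ligase that ARF restrains, was at 0.23 (adjusted p = 0.0899), and the other 6, Mdm4, Npm1, Usp7, Cdkn2aip, Ctbp1 and Ctbp2, lay between -0.28 and 0.05. Of 25 p53 target genes other than Cdkn1a, 3 rose and 3 fell, near the shares of all genes. With spike-in scaling 7 rose and 0 fell, where 3353 of all 17759 genes rose. With median scaling 2 rose and 0 fell, where 833 of all genes rose. The peptide transporter gene Tap1 (0.61) and the polymerase gene Polk (0.52, but 0.13 and not called on its second probe) rose and Ddit4, an mTOR inhibitor (-0.36), fell.

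Reported regulators of CDK inhibitor transcription rose more often than they fell: 10 of 30 tested rose and 1 fell, against 9.87% higher and 13.4% lower among all genes. With slide as a fixed block 3 rose and 1 fell, where 477 of all 17759 genes rose. With median scaling 3 rose and 0 fell, where 833 of all genes rose. With spike-in scaling 16 rose and 0 fell, where 3353 of all genes rose. Bmi1, a Polycomb subunit known as a repressor of the Cdkn2a locus, read -3.21, -3.15 and -3.29 in controls and -2.21, -2.26 and -2.32 with BRG1 siRNA. It was higher on every BRG1 siRNA array, with tight groups. The rise was 1.93-fold (0.95 ± 0.05 SE, adjusted p = 0.00114), and a second probe rose as well (0.79). Ets2, a factor reported to activate Cdkn2a (0.45, adjusted p = 0.0198), and Myc (0.45, adjusted p = 0.0158) also rose, and Smad4, of the TGF-beta pathway, fell (-0.25). The list holds activators and repressors, and its members were chosen with earlier results of these data known. Of 13 genes for CDK inhibitor protein turnover, Rnf123 (-0.25) and Cul4b (-0.17), ubiquitin ligase components, fell and Ubac1 (0.17) rose. These counts were near the shares of all genes (13.4% lower and 9.87% higher). The other probes, none of them called, gave 0.15 and -0.24 for Rnf123 and 0.08 for Cul4b, and with median scaling or slide as a fixed block 0 genes of the list passed.

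**Figure D5:**
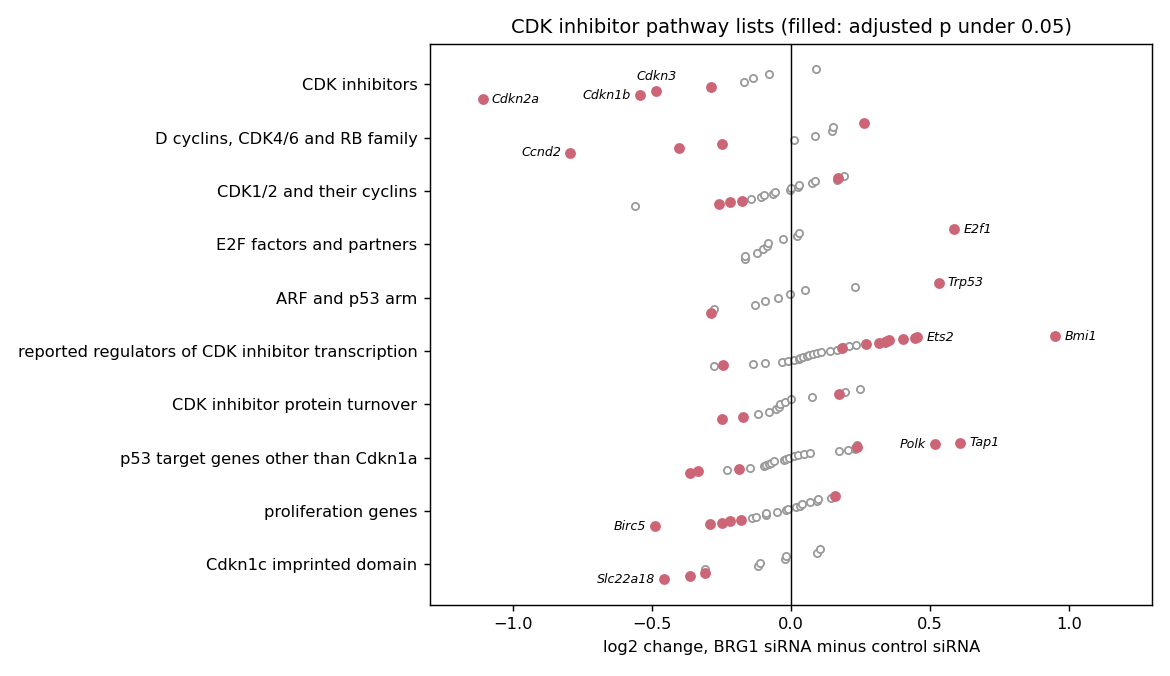
Log2 change with BRG1 siRNA relative to control siRNA (x axis) of every tested gene in 10 lists (y axis; points of a list are spread vertically by rank), filled where the adjusted p was under 0.05. Cdkn2a, at -1.11, is the lowest point, and Bmi1, at 0.95, the highest.

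Proliferation genes were examined beside Cdkn3, whose message follows the division rate. Of 20 tested, 5 fell and 1 rose, with a median of -0.03, and the share of all genes lower was 13.4%. With slide as a fixed block 2 fell and 0 rose, with median scaling 1 fell and 0 rose, and with spike-in scaling 1 fell and 1 rose. Birc5, for survivin, fell by 0.49 on the log2 scale (adjusted p = 0.00404), the thymidylate synthase gene Tyms by 0.29 and the mitotic kinase gene Aurka by 0.25. The other Tyms probes gave -0.22 and -0.14, neither called. The part of the division rate in the Cdkn3 result was not tested.

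In the imprinted domain that holds Cdkn1c, 3 of 10 tested genes fell and 0 rose, against 13.4% lower and 9.87% higher among all genes. With spike-in scaling 0 fell and 1 rose, and with median scaling none passed. The transporter gene Slc22a18 fell by 0.46 (adjusted p = 0.0233), the tetraspanin gene Cd81 by 0.36 (adjusted p = 0.047) and Phlda2, a growth restrainer expressed, like Cdkn1c, from the maternal allele, by 0.31 (adjusted p = 0.0231, -0.31 on its second probe). A second Slc22a18 probe gave -0.08. Kcnq1ot1, the long noncoding RNA that silences the paternal copy of the domain, was at 0.09 (adjusted p = 0.576), and it was at -0.00274 without BRG1 siRNA replicate 3. Tspan32 (-0.31, adjusted p = 0.116), Kcnq1 (0.10), Ascl2 (-0.11), Tssc4 (-0.12), Nap1l4 (-0.02) and Osbpl5 (-0.02) did not pass.

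Of the nearest gene names on each side of the 8 genes, 10 that are not CDK inhibitor genes were tested, of which 2 fell and 1 rose, near the shares of all genes (13.4% and 9.87%). Lockd, a noncoding RNA transcribed downstream of Cdkn1b and listed on the array as 1190002F15Rik, read -0.63, -0.47 and -0.54 in controls and -1.25, -1.06 and -1.23 with BRG1 siRNA. Every BRG1 siRNA array was well below every control. It fell 1.55-fold (-0.63 ± 0.07 SE, adjusted p = 0.00433), from a probe on chromosome 6 at 134965735 to 134965794 of mm7, plus strand, and on the other side of Cdkn1b Gpr19 was at 0.06 (adjusted p = 0.308). The second fall was Slc22a18, beside Cdkn1c, and Kri1, beside Cdkn2d, rose by 0.18 (adjusted p = 0.0493). The other 6 tested neighbours, Kcnq1ot1, Faf1, Atg4d, Ap1m2, Cnih1 and Gmfb, did not pass.

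The genes most like Cdkn2a over the 6 arrays were Psat1, a serine synthesis enzyme (r = 0.9992), Pgk1, a glycolytic enzyme (r = 0.9990), and Zfp61, a zinc finger gene (r = 0.9989). Most like Cdkn1b were Tsnax (r = 0.9960), Bend6 (r = 0.9958) and Map3k15 (r = 0.9948). These Pearson correlations describe 6 arrays that fall into 2 groups and share their scaling, so any gene with a like shift and spread can score high. Cdkn2a and Psat1 share the low control replicate 1: Psat1 read 4.15, 4.33 and 4.29 in controls and 3.73, 3.81 and 3.71 with BRG1 siRNA, a 1.42-fold fall (adjusted p = 0.00511).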

How the data were processed

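Total RNA of 6 ES cell samples, 3 per group, was labelled with Cy3 from 500 ng and hybridised to single-colour arrays. The values deposited by the authors are spot intensity on a linear scale. Agilent Feature Extraction 9.5.3.1 (9.5 in the submitters' processing notes) read array design 014868, with probe coordinates in mm7, per the file headers. Its processed signal is background-subtracted but not normalized between arrays. The deposited value table was identical to it, so its scale is linear and it is not centred.

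From these values, log2 of the processed signal minus each array's 75th percentile over non-control spots was computed. Spots marked as outliers (387 on at least 1 array) and the 1639 control spots of 45018 were left out. Spots of a probe were averaged, and a gene was represented by its brightest probe. Testing required a signal well above background on all arrays of 1 group or both, with a probe counted as such where at least 0.5 of its spots were. limma 3.58.1 (lmFit, eBayes) in R 4.3.3 was fitted over all genes and, separately, all probes, two-sided, with Benjamini-Hochberg adjustment. Exact permutation tests used scipy 1.17.1.

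The genes, the 10 pathway and 5 marker lists and the rules were chosen with earlier results of these data known. Named are all CDK inhibitor probes, Smarca4, up to 3 called genes with the largest change per list (all tested genes of the D cyclin, ARF and imprinted lists), the nearest 2 gene names on each side and the 3 genes most like Cdkn2a and Cdkn1b. The Smad4 fall was named after its value was seen. The Cdk2 rise also lies outside the rule of 3 genes per list. The calls of Smad4 and Cdk2 were not followed gene by gene over the alternatives. A planned comparison between Cdkn2a probes could not be made, since the array has 1. Promoter sequences are from RefSeq (GRCm38.p6), used for names and sequences only, and 7 of 8 genes matched. The alternatives were other background corrections, scalings, filters, slide and replicate blocks, probe summaries, eBayes options, the value table and leaving out single arrays.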

Additional observations from a re-analysis of the deposited data

How the results depend on the processing

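Of the 8 CDK inhibitor genes 4 were called in the main setting and 5 of 11 probes. Median scaling called 1 gene and 1 probe, spike-in scaling 1 and 1, no filter on dim probes 2 and 2, slide as a fixed block 2 and 1, and slide 1 alone 0 and 0 (limma; at an unadjusted p under 0.05, 4 genes and 5 probes). Over all genes tested, 4139 of 17759 were called in the main setting, 1734 with median scaling, 3987 with spike-in scaling and 1392 with slide as a fixed block. With no filter on dim probes 1740 of 27961 were called. Slide 1 alone leaves 1 BRG1 siRNA array, and few genes of any kind were called there. Leaving out each array in turn gave 2 to 4 of the 8 genes and 2 to 5 of the 11 probes. The count was 2 genes when any 1 control or BRG1 siRNA replicate 2 was left out, 3 without BRG1 siRNA replicate 1 and 4 without BRG1 siRNA replicate 3. Deviations of same-numbered arrays from their group means correlated at -0.31, 0.105 and -0.018. With 3 arrays per group and BRG1 siRNA replicates 2 and 3 on another slide, these values cannot decide whether same-numbered arrays were paired. With the replicate block 3 genes and 3 probes were called, and Cdkn2a kept its call (adjusted p = 0.0272). The Cdkn2a change was -1.15 on slide 1 alone and -1.24 to -1.03 with an array left out; its adjusted p ran from 0.000365 to 0.0829 over 20 alternatives. With spike-in scaling the direction turned for Cdkn1a (0.0295), Cdkn2b (0.117), Cdkn2d (0.0624), Ccnb2 (0.0212), Cul4b (0.0236), Tsnax (0.0393) and Zfp61 (0.0286), none of them called there, and Kcnq1ot1, not called, ran from -0.00274 (without BRG1 siRNA replicate 3) to 0.164 with an array left out. Among the other genes named, Ccnd2, E2f1, Bmi1, Tap1, Polk, Birc5 and Lockd each lost their call in 1 alternative, slide 1 alone, whereas Ccnd1 lost its in 3, Ccnd3 in 5, Myc in 6, Slc22a18 in 7, Ets2 and Phlda2 in 9 and Tyms in 10, and Aurka, Ccnh, Ddit4, Huwe1 and Ubac1 lost theirs in 11, Cd81, Cdk6 and Kri1 in 12, Ccne2 and Rnf123 in 13 and Ccnb2 and Cul4b in 14 of 20. Over all genes, 42.3% of calls were rises, and 84.1% with spike-in scaling. Why the calls differ between scalings was not tested. Slide 2 holds 0 controls, so within it no comparison is possible. All 8 genes were well above background on all 6 arrays, whereas the untested Cdkn1b and Cdkn3 probes were above it on 1.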
